A study of Saccharomyces cerevisiae with 2 samples.

Results

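The 26 strains described here each lack 1 gene of the left arm of chromosome V between YEL040 and YEL077, the stretch that holds CAN1 (YEL063C), and they are 26 of 5325 named deletion strains measured. They were chosen by systematic name and not by any measured value, though with earlier results of these data known. RPL12A and VMA8 lie in the stretch but were set aside by the rule, and 10 further genes of that name range, HXT13 among them, had no named feature and were not analysed here. Position in gene order followed the systematic names in all 26.

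Haploid yeast strains with a GAL1-LCD1 plasmid (the LCD1 pool) were compared with haploids of the same collection that held a control plasmid (the control pool). Both plasmids were selected by URA3, and both pools were made by sporulation from 5896 haploid-convertible strains, each a diploid heterozygous for 1 knockout. Haploids of both were selected and grown for 3 days at 30 °C with 2% galactose as the carbon source. Galactose switches on the GAL1 promoter, so LCD1, whose product binds the checkpoint kinase Mec1, is overproduced in every strain of the LCD1 pool. Both pools were compared on 2 two-colour tag arrays (arrays 1 and 2) with the same dye assignment, so dye and pool cannot be told apart. The titles call the arrays experiment 1 and experiment 2, but nothing states that they came from separate cultures. The spread between arrays may therefore be technical.

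Each strain carries a pair of short DNA tags. Features for them fall into 2 blocks, called the first and the second tag because no source says which is upstream. Of the 26 strains, 24 had 1 feature per tag, while CIN8 and HAT2 had 12 features each. All 26 had a value for both tags on both arrays. Values are log2 ratios, LCD1 pool over control pool, centred so that the median strain of each tag block and array is 0. A value of -1 or 1 is a 2-fold difference. The direction is likely but not settled. It was set with the strain that lacks LCD1, which is essential, so that a haploid without it should survive only with the LCD1 plasmid. That strain read 4.24 (first tag) and 1.01 (second tag) on array 1 and 4.97 and 0.30 on array 2, once the deposited sign was turned. Were the deposited ratio the other way round, every strain called lower here would be higher and the reverse.

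CAN1 encodes the plasma membrane permease that brings arginine, and its toxic analogue canavanine, into the cell. In haploid-convertible knockout collections of this kind, a marker expressed only in haploids commonly replaces CAN1, and canavanine kills cells that still carry the gene. Genes near each other on a chromosome are seldom separated at meiosis, so a spore that holds both such a marker and a deletion next to it, when the pair starts on opposite homologues, needs a crossover between them. The labels name neither the marker nor its locus. The values are ratios without intensities, so how abundant these strains were within either pool was not measured, and the link to a selection locus rests on gene names alone.

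Averaged over tags and arrays, the strain without CAN1 had the lowest value of the stretch, the strain without PRB1 3 genes away had the highest, and 20 of the 26 lay within 0.5 of 0. On array 1 alone YEF1 (2.05) and RML2 (1.16) lay above PRB1 (1.09). CAN1 read -2.96 with the first tag and -1.28 with the second on array 1, and -1.83 and -1.34 on array 2. All 4 tag values were thus more than 2-fold below 0, with the first tag of array 1 the farthest out. The deposited ratios behind them, in the likely direction the control pool over the LCD1 pool, were 7.33 and 2.16 on array 1 and 3.35 and 2.28 on array 2. Averaged over tags, CAN1 stood at -2.12 on array 1 and -1.59 on array 2, a mean of -1.85 ± 0.38 (SD, n = 2). It ranked 32 from the lowest of 5325 strains. The next lowest member, RMD6, stood at -0.54. A knockout and a marker that both replace CAN1 are alleles of 1 locus and cannot meet in 1 haploid, so if the usual marker was used, this tag ratio would be no measure of growth.

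PRB1 encodes the vacuolar protease B. Its deletion strain read 1.07 with the first tag and 1.11 with the second on array 1, and 1.47 and 1.40 on array 2. The tags were close to each other on each array, and every value was more than 2-fold above 0. The mean was 1.26 ± 0.24 (SD, n = 2), rank 43 from the highest of all strains. PRB1 lies 3 genes from CAN1. If the usual marker was used, a haploid without PRB1 would need a crossover in that short interval. The strain may then have been scarce in both pools, and its abundance was not measured.

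**Figure D1:**
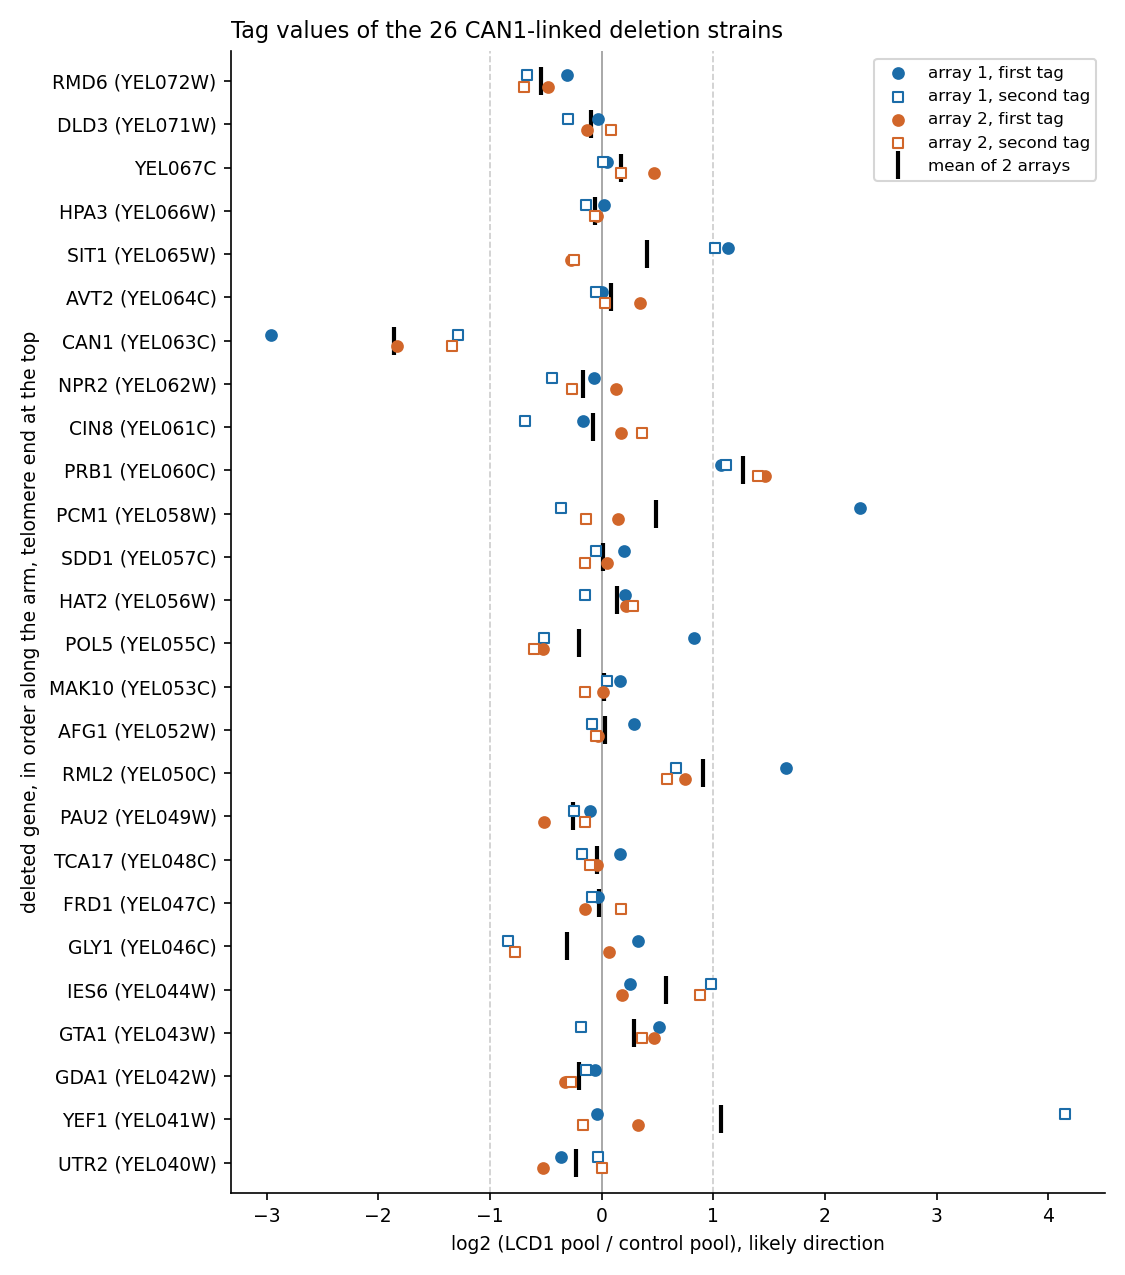
Log2 ratio, LCD1 pool over control pool, for each tag of the 26 strains, in order along the arm; circles are first tags, squares second tags, blue array 1, orange array 2, and black bars the mean of the 2 arrays. The 4 values of CAN1 lie between -2.96 and -1.28, those of PRB1 between 1.07 and 1.47, and 1 value of YEF1 stands alone at 4.15.

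No member passed limma's moderated test of the ratio against 0, with an adjusted p of 0.113 for CAN1 and 0.117 for PRB1 (Benjamini-Hochberg over 5325 strains), and the same test called 0.0% of all strains in either direction. At an unadjusted p under 0.05, limma gave 2 members lower (RMD6 and CAN1) and 3 higher (PRB1, RML2 and IES6), 5 of 26 or 19.2%. Over all strains it gave 10.8% lower and 11.6% higher, 22.3% in all. The members' share was thus near the background. With 2 arrays an exact sign-flip test cannot go below p = 0.5. A limma fit that took the 4 tag values as separate, although they come from 2 arrays and 2 tags, called PRB1 (adjusted p 0.0415) and not CAN1 (0.0828), and called 0.451% of all strains. Treating the tag as a random block in that limma fit ended the call for PRB1 (adjusted p 0.0838). Treating the array as the block instead called 4 members, RMD6, CAN1, PRB1 and RML2 (limma, adjusted p 0.0266 for CAN1), but also 8.9% of all strains, with a correlation within arrays estimated at -0.36, against 0.21 within tags.

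By size, CAN1 was the 1 member at least 2-fold lower on both arrays, a rule that took 1.82% of all strains, and PRB1 the 1 member at least 2-fold higher, against 0.695%. Both were also past 2-fold on both tags of both arrays, which 0.376% of all strains were on the lower side and 0.15% on the higher side. With 1 member on each side, these counts set 2 strains apart and say nothing of the stretch. On array 1 alone 5 members were at least 2-fold from 0 (SIT1, CAN1, PRB1, RML2 and YEF1), or 19.2%, against 8.23% of all strains. On array 2 alone CAN1 and PRB1 were left, 7.69% against 5.39%.

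**Figure D2:**
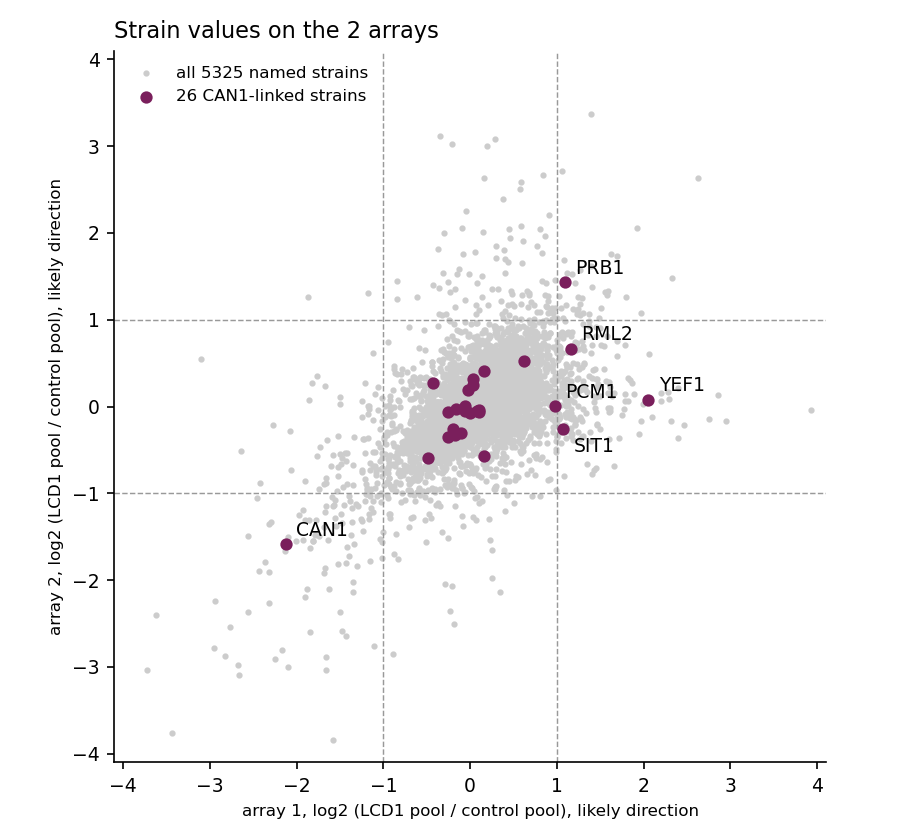
Strain values on array 1 (horizontal) and array 2 (vertical), as log2 ratios, LCD1 pool over control pool; purple points are the 26 CAN1-linked strains, grey points all 5325 named strains, and dashed lines 2-fold differences. CAN1 lies past 2-fold at the lower left and PRB1 at the upper right, while SIT1 and YEF1 are past 2-fold on array 1 and near 0 on array 2.

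The strains that flank CAN1 did not share its value. AVT2, the next gene towards the telomere, encodes a likely vacuolar amino acid transporter, and its strain read 0.0027 and -0.05 on array 1 and 0.35 and 0.03 on array 2 (first and second tag). NPR2, the next gene towards the centromere, encodes a subunit of the complex that restrains the growth kinase TORC1 when amino acids run short, and its strain read -0.07 and -0.45 on array 1 and 0.13 and -0.26 on array 2. The means were 0.08 ± 0.15 and -0.16 ± 0.14 (SD, n = 2). Limma called neither strain (adjusted p 0.725 and 0.483), and AVT2 had opposite signs on the 2 arrays. The limit on abundance given for PRB1 holds for AVT2 and NPR2, and for the other members near CAN1.

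Further out on each side, HPA3, an N-acetyltransferase gene, gave 0.02 and -0.14 on array 1 and -0.05 and -0.06 on array 2, all close to 0. CIN8 encodes a kinesin motor of the mitotic spindle. It gave -0.16 and -0.69 on array 1 and 0.18 and 0.36 on array 2, opposite signs on the arrays. The means of the 3 members on either side of CAN1 had a median of 0.01. Taken on each array, CAN1 lay lower than the median of these 6 by a log2 difference of -2.08 on array 1 and -1.65 on array 2. PRB1, itself 1 of these 6, lay above the median of CIN8 and PCM1, the members next to it, by 0.82 on array 1 and 1.30 on array 2. On array 1 those neighbours differed, with CIN8 at -0.425 and PCM1 at 0.97, so that PCM1 was close to PRB1 (1.09) there.

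SIT1, 2 genes from CAN1, encodes a siderophore iron transporter. Its strain read 1.13 and 1.01 on array 1 but -0.28 and -0.25 on array 2. Both tags agree on each array while the arrays differ in sign, so the mean of 0.40 ± 0.94 (SD, n = 2) describes neither array. Among the 4 strains for transporters and permease control (CAN1, AVT2, SIT1 and NPR2) the median was -0.04, with CAN1 past the size rule and 2 of opposite signs on the arrays.

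In the group for the cell surface, sugar and protein traffic, 1 of 6 strains, PRB1, was past the size rule, and the other 5 had means between -0.25 and 0.49. The highest of the 5 was PCM1, a phosphoacetylglucosamine mutase gene of the chitin and glycan pathway, at 0.49 ± 0.69. It read 2.31 and -0.36 on array 1 and 0.15 and -0.14 on array 2 (first and second tag), so that 1 value of 4 made the mean. PCM1 is essential and a haploid without it should grow in neither pool, so its ratio is no measure of growth. PAU2, a seripauperin gene (-0.25 ± 0.11), UTR2, a cell wall chitin transglycosidase gene (-0.23 ± 0.044), GDA1, the Golgi guanosine diphosphatase gene (-0.20 ± 0.14), and TCA17, a gene of the TRAPP trafficking complex (-0.04 ± 0.052), were below 0 on both arrays, and limma called none of them (adjusted p 0.327 to 0.849).

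Of 4 metabolic strains, YEF1, which lacks an NADH kinase gene, had the highest mean. It read -0.04 and 4.15 on array 1 and 0.33 and -0.17 on array 2. The single high value came from a deposited ratio of 0.05, where a step of 1 hundredth spans a log2 width of 0.29, and the mean of 1.07 ± 1.40 rested on it. GLY1, the threonine aldolase gene that supplies glycine, had tags that disagreed in the same way on both arrays. It read 0.33 and -0.84 on array 1 and 0.06 and -0.77 on array 2. FRD1, a fumarate reductase gene, stood at -0.02 ± 0.048 and DLD3, of the D-lactate dehydrogenase family, at -0.09 ± 0.097.

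The 5 strains grouped under chromosome, chromatin and nucleolar functions were HPA3, CIN8, HAT2, POL5 and IES6. Their median was -0.06, the value of HPA3, and 0 were past the size rule. IES6, a subunit gene of the INO80 chromatin remodeller, was the highest at 0.57 ± 0.062, above 0 in all 4 values. It read 0.25 and 0.98 on array 1 and 0.18 and 0.88 on array 2, so the second tag was the higher one each time. HAT2, of the Hat1 histone acetyltransferase, stood at 0.14 ± 0.16, and POL5, an essential nucleolar gene needed for rRNA synthesis, at -0.20 ± 0.51. The first tag of POL5 read 0.83 on array 1 and -0.52 on array 2. Its second tag read -0.52 and -0.61, so the first tag of array 1 alone was above 0. The limit given for PCM1 holds for POL5 too.

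Because CIN8 and HAT2 had 6 features per tag, they show how far features of 1 tag vary on 1 array. For HAT2 the centred features of the first tag spanned 0.17 to 0.25 on array 1 and -0.05 to 0.47 on array 2. Its second tag spanned -0.23 to -0.02 on array 1 and 0.12 to 0.38 on array 2. For CIN8 the first tag spanned -0.24 to -0.06 on array 1 and 0.02 to 0.35 on array 2. The second tag of CIN8 was the widest of these tags on both arrays, from -1.50 to 0.38 on array 1 and from -0.18 to 0.71 on array 2. A single feature of that tag on array 1 could thus lie more than 2-fold from 0 while the mean of its 6 features was -0.69, and 24 of the 26 strains, CAN1 and PRB1 included, rested on 1 feature per tag.

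Both mitochondrial strains had means above 0. RML2, which encodes a large-subunit protein of the mitochondrial ribosome, read 1.65 and 0.66 on array 1 and 0.75 and 0.58 on array 2. All 4 were above 0, and the mean of 0.91 ± 0.35 ranked 159 from the highest of all strains, with an adjusted p of 0.147 by limma. AFG1, a mitochondrial ATPase gene, stood at 0.03 ± 0.10, with opposite signs on the 2 arrays (0.10 and -0.04), so its mean gives no clear direction.

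The 5 remaining strains had means between -0.54 and 0.29. RMD6, the outermost member towards the telomere, read -0.31 and -0.67 on array 1 and -0.48 and -0.70 on array 2, below 0 in all 4 values (adjusted p 0.161 by limma). MAK10, which encodes a subunit of the NatC N-terminal acetyltransferase, stood at 0.02 ± 0.12, SDD1 at 0.01 ± 0.089, YEL067C at 0.17 ± 0.20 and GTA1 at 0.29 ± 0.18. In all, 8 of the 26 members had the same sign on both tags of both arrays, 30.8% against 33.1% of all strains, and 8 had opposite signs on the 2 arrays, 30.8% against 28.2%.

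As a whole the stretch did not stand to either side. The 26 strains had a median of -0.0056 and quartiles of -0.19 and 0.26, 13 lying below 0 and 13 above, beside a median of 0.04 (quartiles -0.20 and 0.29) over all strains. The median absolute value was 0.20 for the members and 0.24 for all strains. Means lay within 0.5 of 0 for 20 members, 76.9%, and for 79.3% of all strains. The median SD between arrays was 0.14 for the members and 0.15 for all strains. These values are descriptions, since the strains are not replicates of each other.

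No gradient with distance from CAN1 was visible in the mean ratios. A shortage of nearby strains that both pools shared would cancel in this ratio, so linkage itself was not tested. Apart from CAN1, the 13 members up to 10 genes away had a median of 0.01 and a median absolute value of 0.16, and the 12 farther out -0.0017 and 0.24. The 6 members on the telomere side had a median of 0.01, as did the 19 on the centromere side. Across the 25 strains, which share both arrays, the absolute mean and the number of genes from CAN1 had a Pearson's r of 0.12 and a Spearman's rho of 0.21, given as a description. A member's mean and that of the next member along the arm had an r of -0.02 (25 neighbouring pairs), so high or low values did not come in runs. At the border of the stretch UTR2, the last member, stood at -0.23 ± 0.044, and CYC7, the first gene outside, at 0.31 ± 0.34. RPL12A and VMA8, set aside within the stretch, stood at -0.10 ± 0.25 and 0.06 ± 0.12.

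The rest of the chromosome was measured on the same arrays. The 33 strains of YEL001 to YEL039 had a median of -0.03 and a median absolute value of 0.35, and the size rule took 2 of them as lower and 0 as higher. Those 2 lacked MCM3, an essential subunit gene of the replicative helicase (-1.46), and the P-type ATPase gene SPF1 (-1.29). The limit given for PCM1 holds for MCM3 too. The 179 strains of the right arm had a median of -0.05 and a median absolute value of 0.25, with 4 lower and 1 higher. The same limit holds for any essential gene in these counts and in the shares over all strains. No difference between these stretches was tested.

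**Figure D3:**
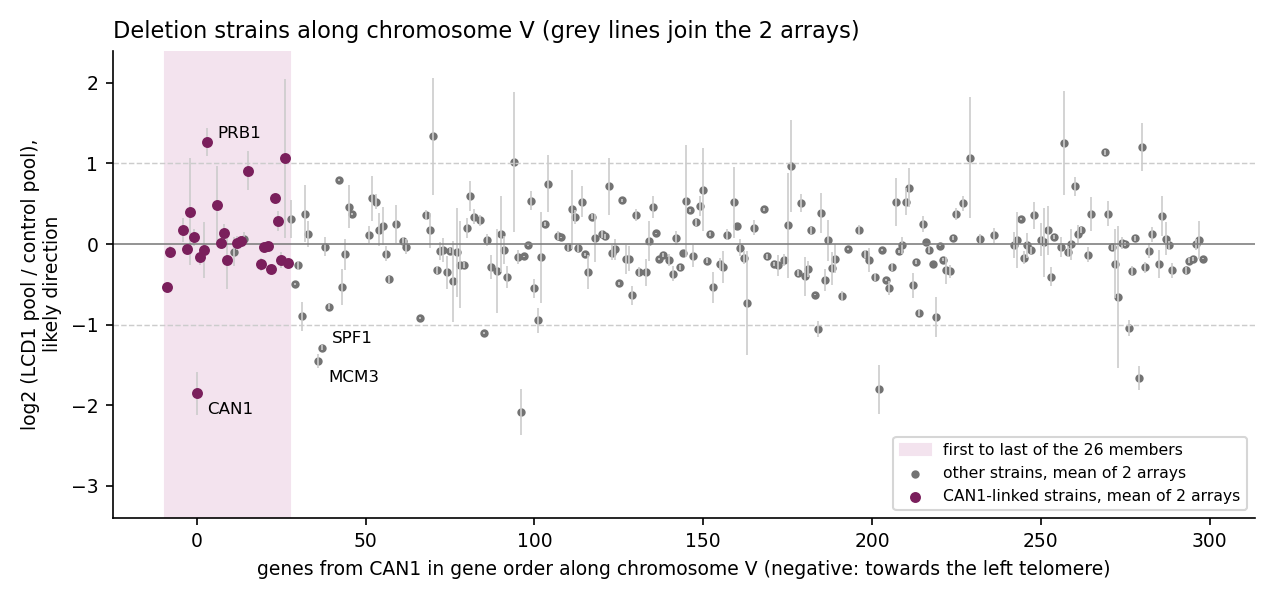
Mean log2 ratio, LCD1 pool over control pool, (vertical) of each deletion strain along chromosome V in gene order from CAN1 (horizontal); purple points are the 26 members within the shaded stretch, grey points other strains, and thin lines join the values of the 2 arrays. CAN1 at -1.85 and PRB1 at 1.26 are the lowest and highest means of the 26 members. The members near them lie in between, SIT1 at 0.40 and PCM1 at 0.49 among them. No gradient of the ratio around CAN1 is visible. A shortage shared by both pools would not show in this ratio.

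The pair of tags of a strain gave like values more clearly on array 2 than on array 1. The median gap between the tags of a member was 0.35 on array 1 and 0.21 on array 2, beside 0.38 and 0.34 over all strains. Across the 26 members Pearson's r between the tags was 0.26 on array 1 and 0.82 on array 2, and Spearman's rho 0.30 and 0.64. Without CAN1 and PRB1 r was 0.04 on array 1 and 0.57 on array 2. The 2 strains thus carried most of r on array 1 and part of it on array 2. Over all strains r was 0.09 and 0.14. Between arrays, r was 0.65 for the 26 members, 0.34 without CAN1 and PRB1, and 0.55 over all strains. These correlations across strains are descriptions, since all points share the same hybridisations.

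**Figure D4:**
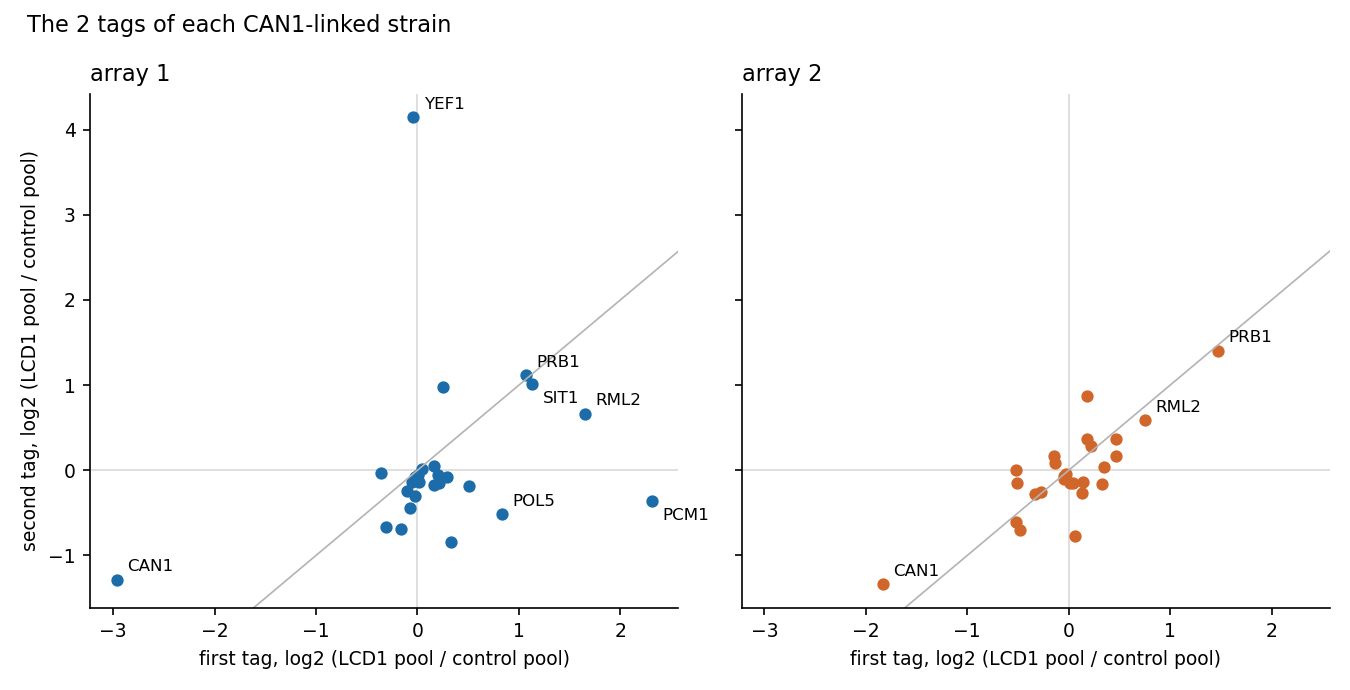
First tag (horizontal) against second tag (vertical) of the 26 strains on array 1 (left, blue) and array 2 (right, orange), as log2 ratios, LCD1 pool over control pool, with a diagonal of equality. On array 1 YEF1 and PCM1 lie farthest from the diagonal, through 1 tag each, and CAN1 is also off it (-2.96 and -1.28). On array 2 CAN1 and PRB1 mark the lower and upper ends of the points, while GLY1 (0.06 and -0.77) and IES6 (0.18 and 0.88) lie off the diagonal.

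CAN1 was also set among the strains of its amino acid permease family, which lie on many chromosomes. Of 17 such strains, the size rule took CAN1 and LYP1 as lower and 0 as higher, beside 1.82% lower and 0.695% higher of all strains, in a list chosen with earlier results known, and limma called 0 (the limma test of CAN1 given above is the same fit). The family median was -0.0065, with 9 below 0 and 8 above, beside 0.04 over all strains. LYP1 encodes the lysine permease, and like CAN1 it can serve as a haploid selection locus, since its loss gives resistance to a toxic lysine analogue. Its strain read -1.10 and -1.68 on array 1 and -0.64 and -1.44 on array 2, a mean of -1.21 ± 0.25 (SD, n = 2; adjusted p 0.118 by limma). The tags of LYP1 were all below 0, the first tag of array 2 less than 2-fold.

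GAP1, the general amino acid permease gene, was the third lowest of the family at -0.71 ± 0.062. ALP1, whose product is closely related to Can1, stood at -0.20 ± 0.19, and CAN1 was lower than ALP1 on both arrays. At the other end were the strains without the tryptophan permease gene TAT2 (0.88 ± 0.80) and the glutamine permease gene GNP1 (0.83 ± 0.24). Among 8 measured strains of genes often used as haploid selection loci or markers, the same 2 strains, CAN1 and LYP1, with the same values, were the ones the size rule took as lower, beside 1.82% of all strains, and the other 6 had means between -0.60 (LYS2) and 0.87 (MFA1). LEU2, MET15 and URA3 had no named feature and were not analysed here.

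**Figure D5:**
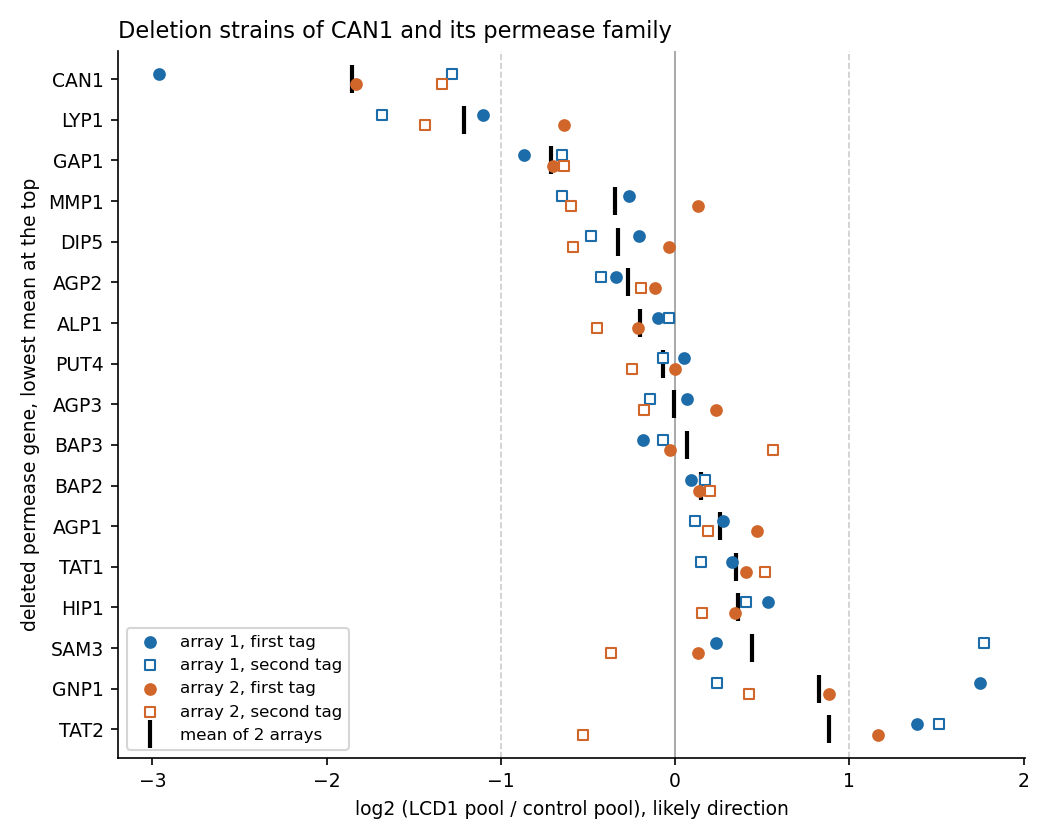
Tag values of the 17 deletion strains of the amino acid permease family, as log2 ratios, LCD1 pool over control pool, lowest mean at the top; symbols are circles for first tags, squares for second tags, blue for array 1, orange for array 2 and black bars for the mean. CAN1 and LYP1, with means of -1.85 and -1.21, are the 2 strains past 2-fold lower on both arrays.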

How the data were processed

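Tags were amplified from genomic DNA of each pool, the control pool labelled with Cy5 and the LCD1 pool with Cy3, and read on Hopkins tag arrays with GenePix 5.1, per the labels. The deposited values are log2 ratios of the dyes, as the values show: on a linear scale 100.0% were whole hundredths within 0.001. The sources used here give no numerator, normalization or intensities, so no filter on dim features was possible; the deposited median was -0.14 on each array. The platform annotation named 18794 of 22575 features, with symbols updated through the R64 gene table (4 symbols unmatched); the arrays' genome build is not stated, so no coordinates are given. The sign was turned, features were averaged per gene and tag block, each block was centred on its median and tags were averaged (Python 3.11.15, pandas 2.3.3). Strains were tested with limma 3.58.1 in R 4.3.3 (intercept, eBayes, 1 residual and 2.42 prior degrees of freedom, two-sided, Benjamini-Hochberg over 5325 strains), after testing on simulated data. The number of arrays limits the precision. Members, gene lists, role groups and alternatives were chosen with earlier results of these data known. All members may be named; all tag values are given for CAN1, the 3 members on either side, members past the size rule (2-fold on both arrays) and the 3 lowest and 3 highest means.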

Additional observations from a re-analysis of the deposited data

How the results depend on the processing

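CAN1 stayed the 1 member at least 2-fold lower under every alternative of centring, tags, scaling, threshold, bounds and left-out array, and a 3-fold threshold still took it. PRB1 was the 1 higher member except at 1.5-fold (2 members), at 3-fold (0) and with array 2 left out (4 members, against 1 with array 1 left out). The median of the 26 strains was 0.12 without centring, which lifts the median of all strains by 0.13, and 0.13 and -0.084 with the first and second tag alone. Limma called 0 members except on the 4 tag values (1 member, PRB1) and with the array as a random block there (4 members, CAN1 at adjusted p 0.0266 and PRB1 at 0.0168), a fit chosen after seeing the data, with an estimated correlation of -0.36 within arrays and 8.9% of all strains called; the tag as a block, likewise added, gave 0. With the sign turned, CAN1 would read 1.85, PRB1 -1.26, NPR2 0.16, AVT2 -0.082 and LCD1 -2.63. NPR2 turned to 0.028 with the first tag alone, AVT2 to -0.0099 with the second, and AVT2 ranged from -0.025 to 0.19 with 1 array left out; the cause was not tested. No paired analysis was possible because there was 1 group of 2 arrays. Without intensities, signal over background is unknown.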
